A study of Homo sapiens with 4 samples.

Results

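The 4 human Argonaute genes (AGO1, AGO2, AGO3, and AGO4) and the 3 TNRC6 genes (TNRC6A, TNRC6B, and TNRC6C) were followed in 293T cells that had received a miRNA mimic. They were chosen by name as the core effectors of miRNA silencing, and all 7 were found by their Ensembl gene identifiers among the 58243 genes listed in each library. The 293T line derives from human embryonic kidney, and a mimic is a short synthetic RNA duplex with 1 strand that carries the sequence of a mature miRNA. There were 4 libraries, 1 each from 293T cells transfected with a negative control RNA, with miR-1, with miR-122, or with miR-124, and the sample labels place RNA isolation 48 h after transfection, whereas the study's methods give a shorter time. miR-1 is best known from muscle, miR-122 from the liver, and miR-124 from neurons. Every condition was a transfection of the same line, no library came from cells without transfection, and how much mimic entered the cells was not measured in the files used here.

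An Argonaute protein holds the miRNA and uses it as a guide to pair with an mRNA, usually in the 3′ untranslated region (UTR). A TNRC6 protein then binds the Argonaute through repeats of glycine and tryptophan, and recruits the PAN2-PAN3 and CCR4-NOT deadenylases, which shorten the poly(A) tail ahead of decapping and decay. AGO2 is the human Argonaute with strong endonuclease (slicer) activity, whereas AGO1, AGO3, and AGO4 act mostly or wholly through TNRC6. The cells make these proteins for their own miRNAs too, and a transfected mimic uses the same pool.

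The mature miRNAs and the matches to them are shown first, because 3′ UTR matches are the feature by which a mimic could meet the mRNAs of its own effectors. The sequences of miR-1 and miR-122 are from RefSeq (GRCh38.p14), with the seed, bases 2 to 8, in capitals. The 2 seeds differ in 1 letter.
miR-1: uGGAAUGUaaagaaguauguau
miR-122: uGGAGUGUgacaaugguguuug

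The match to the whole seed followed by an A is ACATTCCA for miR-1 and ACACTCCA for miR-122 (8mer). The 7-letter forms lack either the A (ACATTCC and ACACTCC, 7mer-m8) or the first letter (CATTCCA and CACTCCA, 7mer-A1). They were searched on the mRNA strand in the longest annotated 3′ UTR of GENCODE release 44, and each place was counted once under its longest form. miR-124 was not searched.

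A match to miR-1 was found in AGO1, AGO2, AGO3, and TNRC6B, and none was found in AGO4, TNRC6A, or TNRC6C. AGO1 held 1 match to miR-1 and 1 to miR-122, AGO2 held 2 and 1, AGO3 held 2 and 8, TNRC6A held 0 and 1, and TNRC6B held 2 and 3, whereas AGO4 and TNRC6C held none for either. The 8mers were 1 for miR-122 in AGO1 and 1 for miR-1 in AGO3. All 8 matches of AGO3 to miR-122 were 7mer-A1 and lay within copies of the same 10-letter word. Over the 10885 genes with a 3′ UTR and at least 200 reads, this word held 46.1% of all occurrences of CACTCCA. It was found in 10.9% of these genes. The following sites, in GRCh38 coordinates on the plus strand and with the match in capitals, show these 8mers, the neighboring miR-1 match of AGO1, the single match of TNRC6A, and a miR-1 match of TNRC6B.
AGO1 with miR-1, chr1:35921857-35921878: tcactggagagcctACATTCCt
AGO1 with miR-122, chr1:35921895-35921916: gagagtgatgctaACACTCCAt
AGO3 with miR-1, chr1:36067991-36068012: tttgtttcctttgACATTCCAt
TNRC6A with miR-122, chr16:24823999-24824020: tatctactctatttACACTCCc
TNRC6B with miR-1, chr22:40331175-40331196: ctgaggcggccattACATTCCc

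Such matches were common in long UTRs. Of 10885 genes with a 3′ UTR and at least 200 reads, 24.9% held an 8mer or 7mer of miR-1 and 26.3% held one of miR-122. Among the 39 genes within 20% of the UTR length of AGO3, these shares were 94.9% and 92.3%. For the 106 genes near the length of TNRC6B they were 85.8% and 90.6%, and for the 176 near AGO1 they were 78.4% and 85.8%. For the 1311 genes near AGO4 they were 45.7% and 47.5%, and for the 1717 near TNRC6A they were 29.1% and 31.3%. The same matches were counted for all 7 genes in the UTR of 1 representative transcript. That UTR had the length of the longest one in every gene but TNRC6A, where it was 2411 and not 2414 bases. This count could therefore hardly differ and is no separate check. A match is a description of the sequence and not a site of action.

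The 7 genes lie on 5 chromosomes. AGO4 (ENSG00000134698, 35808016 to 35857890), AGO1 (ENSG00000092847, 35869808 to 35930532), and AGO3 (ENSG00000126070, 35930718 to 36072500) follow each other on the plus strand of chromosome 1, with 11917 bases between the first pair and 185 between the second. AGO2 (ENSG00000123908) lies on the minus strand of chromosome 8, from 140520156 to 140635633. TNRC6A (ENSG00000090905) is on chromosome 16 from 24610209 to 24827632, TNRC6B (ENSG00000100354) on chromosome 22 from 40044817 to 40335808, and TNRC6C (ENSG00000078687) on chromosome 17 from 77958703 to 78108822, all 3 on the plus strand. The longest 3′ UTR was 16755 bases in AGO3, 12567 in TNRC6B, 11888 in AGO2, and 10925 in AGO1, at percentiles 99.8, 99.4, 99.3, and 98.98 of the 10885 genes. It was 4285 bases in AGO4, 3977 in TNRC6C, and 2414 in TNRC6A. Their GC content was between 37.2% (AGO3) and 44.03% (AGO2), at percentiles 30.1 and 53.9 of the same genes.

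The deposited values are FPKM, which scale the reads of a gene to its length and to the reads of the library. The reads behind them were recovered through the values of short genes with a single read. By this, the control RNA library held 6624306 reads and the mimic libraries 9452232 (miR-1), 5887055 (miR-122), and 6465436 (miR-124). The line was described by 7 genes that 293T cells express, namely KRT8, KRT18, VIM, NEFM, NEFL, PAX2, and LHX1. All 7 were above 0.004, the study's limit of detection, in every library, with summed values of 214 to 244 FPKM. Of these, 5 had at least 200 reads over the 4 libraries, and PAX2 was at only 0.0192 to 0.0492 FPKM. The summed values of 7 genes for each other cell type were 1.26 to 1.91 FPKM for muscle, of which MYOD1 gave 1.13 to 1.71, 0.0831 to 0.165 for liver, and 0.765 to 1.251 for neurons. The deposited FPKM divide by the whole gene with its introns, so such sums compare lists only roughly. The limit of 0.004 was also passed by 5 of the 7 neuron genes in every library and by 4 to 6 muscle genes. Passing it therefore does not tell the cell types apart.

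Each ratio below is the FPKM in a mimic library over that in the control RNA library, without a pseudocount, with the exact Clopper-Pearson 95% interval of the recovered reads. It covers counting error only. With 1 library per condition there is no replicate check, so the intervals compare libraries and not conditions, and no p-value was calculated. The 3 ratios of a gene share the same control RNA library, and what was particular to that library cannot be told apart from what the mimics did. In RNA from a whole well, fewer cells with a transcript and less of it in each cell cannot be told apart either.

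TNRC6A, AGO2, and AGO3 were lower in all 3 mimic libraries than in the control RNA library, with whole intervals below 1 each time, and AGO4 was lowest with miR-1. TNRC6B had nearly the same value in the 4 libraries, and AGO1 stayed near its control value with miR-1 and miR-122. No gene of the 7 was higher in a mimic library by an interval above 1. TNRC6A had the lowest ratio of all 7 with each mimic.

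AGO1 was measured at 1.28 FPKM (513 reads) with the control RNA, 1.30 (746 reads) with miR-1, 1.26 (449 reads) with miR-122, and 1.09 (428 reads) with miR-124. The miR-124 library was the low one of the 4. The ratio was 1.02 (0.910 to 1.14) with miR-1, 0.985 (0.866 to 1.12) with miR-122, and 0.855 (0.750 to 0.974) with miR-124.

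AGO2, the slicer, was at 1.04 FPKM (793 reads) with the control RNA, 0.716 (781 reads) with miR-1, 0.706 (480 reads) with miR-122, and 0.802 (599 reads) with miR-124. The control RNA library was above the others, whose values were close together. The ratio was 0.690 (0.624 to 0.763) with miR-1, 0.681 (0.607 to 0.764) with miR-122, and 0.774 (0.695 to 0.862) with miR-124.

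AGO3 gave 0.276 FPKM (259 reads) with the control RNA, 0.212 (284 reads) with miR-1, 0.205 (171 reads) with miR-122, and 0.206 (189 reads) with miR-124. Again the control RNA library was the high one, and the 3 mimic libraries were alike. The ratio was 0.768 (0.647 to 0.913) with miR-1, 0.743 (0.609 to 0.905) with miR-122, and 0.748 (0.617 to 0.905) with miR-124.

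AGO4 was at 0.616 FPKM (203 reads) with the control RNA, 0.379 (178 reads) with miR-1, 0.526 (154 reads) with miR-122, and 0.501 (161 reads) with miR-124. Here the miR-1 library stood below the other 3. The ratio was 0.615 (0.4996 to 0.755) with miR-1, and the intervals included 1 with miR-122, at 0.854 (0.688 to 1.06), and with miR-124, at 0.813 (0.657 to 1.004). AGO4 had the fewest reads of the 7 genes, so its intervals were the widest on a log scale.

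TNRC6A, which like its paralogs bridges Argonaute and the deadenylases, was at 0.387 FPKM (557 reads) with the control RNA, 0.223 (459 reads) with miR-1, 0.259 (332 reads) with miR-122, and 0.287 (404 reads) with miR-124. All 3 mimic libraries were below the control RNA library, and the miR-1 library was the lowest. The ratio was 0.578 (0.509 to 0.655) with miR-1, 0.671 (0.584 to 0.770) with miR-122, and 0.743 (0.652 to 0.846) with miR-124. Among all genes with at least 200 reads, these ratios stood at percentiles 1.62, 2.61, and 8.91, counted from the lowest.

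TNRC6B was at 0.194 FPKM (374 reads) with the control RNA, 0.194 (533 reads) with miR-1, 0.195 (334 reads) with miR-122, and 0.190 (358 reads) with miR-124. No library stood out. The ratio was 0.999 (0.873 to 1.14) with miR-1, 1.005 (0.864 to 1.17) with miR-122, and 0.981 (0.846 to 1.14) with miR-124, so differences of up to about those bounds were not detectable at this depth.

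TNRC6C was at 0.298 FPKM (295 reads) with the control RNA, 0.237 (335 reads) with miR-1, 0.273 (240 reads) with miR-122, and 0.270 (261 reads) with miR-124. The miR-1 library was the lowest. The ratio was 0.796 (0.679 to 0.934) with miR-1, and the intervals included 1 with miR-122, at 0.915 (0.769 to 1.09), and with miR-124, at 0.906 (0.764 to 1.07).

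**Figure D1:**
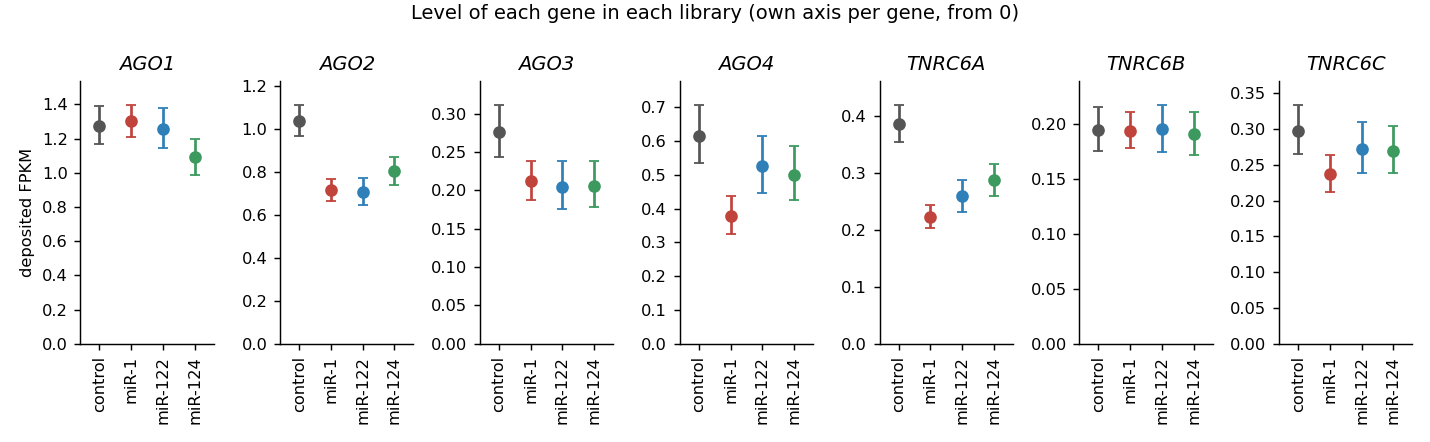
Deposited FPKM of each of the 7 genes in the 4 libraries, 1 point per library, with its own vertical axis from 0 for each gene and bars for the exact 95% counting interval. AGO2, AGO3, and TNRC6A are highest with the control RNA, AGO4 is lowest with miR-1 at 0.379, and TNRC6B runs level between 0.190 and 0.195.

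**Figure D2:**
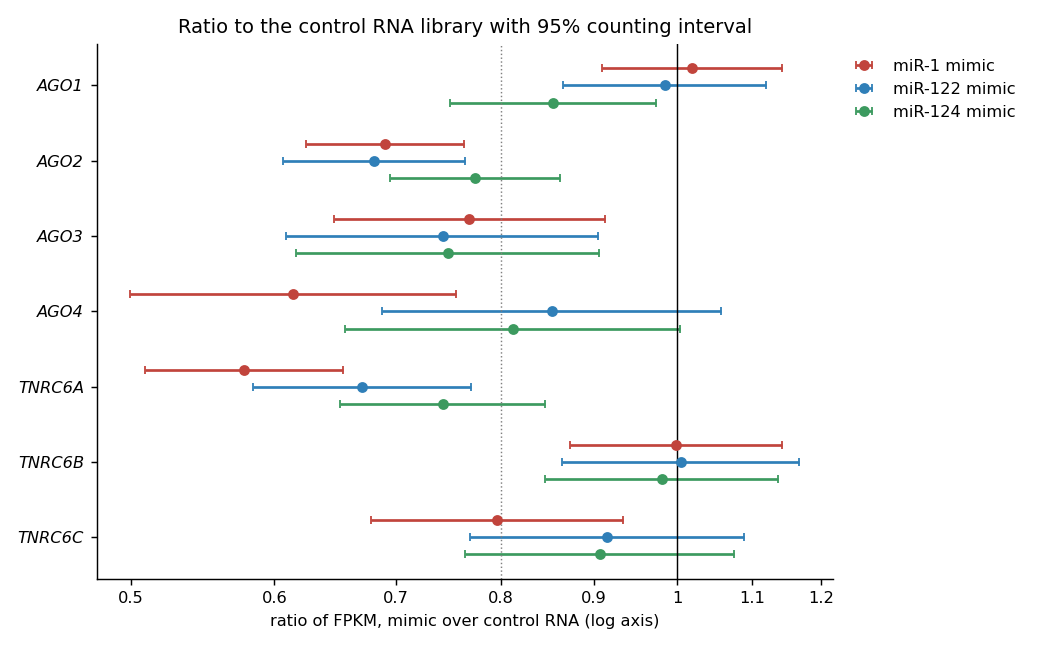
Ratio of FPKM, mimic over control RNA, for each gene on a log axis, with the exact 95% counting interval, a solid line at 1, and a dotted line at 0.8. The 3 intervals of AGO2, AGO3, and TNRC6A lie below 1, and those of TNRC6B all include 1.

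Lower values were not rare in these libraries, and the 7 genes are to be read against that. With miR-1, 5 of the 7 genes had a ratio of 0.8 or less, against 18.7% of all genes with at least 200 reads over the 4 libraries. The 5 were AGO2, AGO3, AGO4, TNRC6A, and TNRC6C. With miR-122 it was 3 of 7, against 12.5% of all genes, and with miR-124 it was 3 of 7, against 16.6%, in both cases AGO2, AGO3, and TNRC6A. A ratio of at least the reciprocal of 0.8, as much higher, was reached by 0 of the 7 genes with each mimic, while 7.49% of all genes reached it in the miR-1 library, 8.04% in that of miR-122, and 10.3% in that of miR-124.

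By counting intervals the numbers were similar. The whole interval was below 1 for 5 of 7 genes with miR-1, against 25.1% of all genes, for 3 of 7 with miR-122, against 16.8%, and for 4 of 7 with miR-124, against 22.3%. It was above 1 for 0 of 7 genes with each mimic, against 15.7%, 13.4%, and 16.6% of all genes with miR-1, miR-122, and miR-124. The 7 genes had a median log2 ratio of -0.38 for miR-1, -0.23 for the miR-122 library, and -0.30 for that of miR-124, beside medians of -0.05, -0.02, and -0.05 over all genes. The median log2 ratio of the 4 Argonaute genes was -0.46, -0.33, and -0.33, and that of the 3 TNRC6 genes was -0.33, -0.13, and -0.14. With a fold of 1.5 as the limit, 2 genes were still counted with miR-1 (AGO4 and TNRC6A) and 0 with miR-122 or miR-124. With a pseudocount of 1 FPKM, which is above most of these values, 0 genes were counted with any mimic. The shares of all genes with this fold and with this pseudocount are not given here, so these counts have no background beside them.

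**Figure D3:**
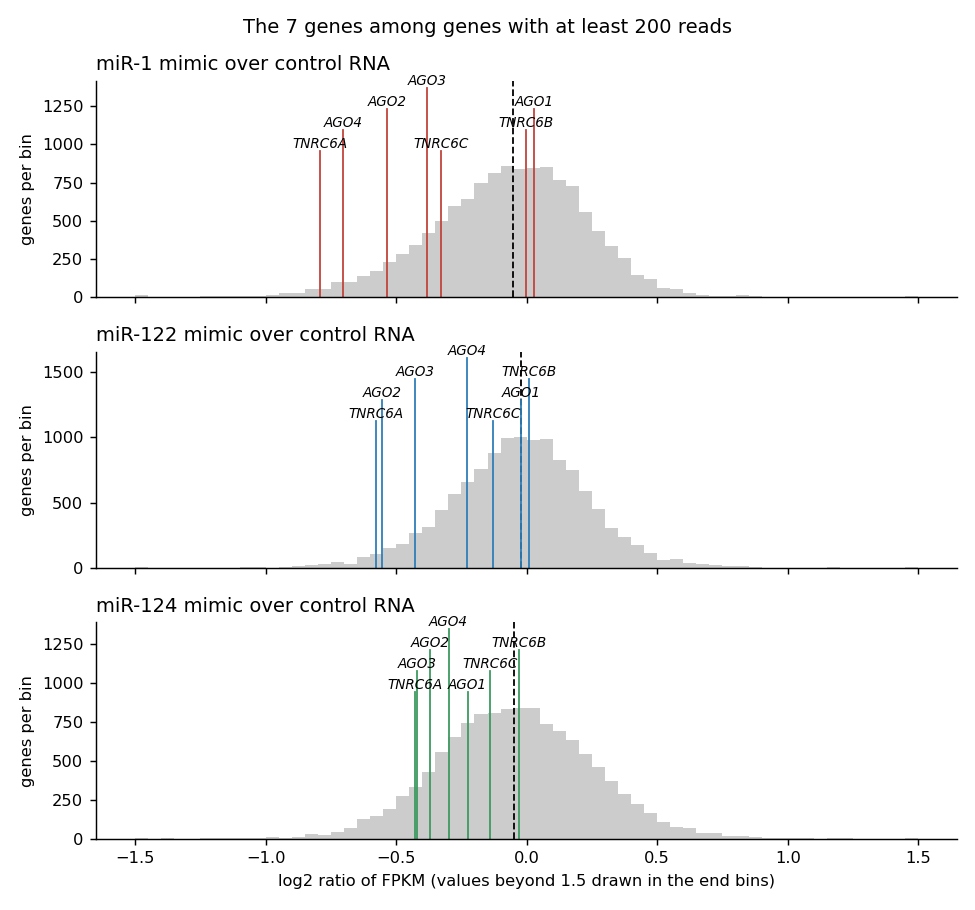
Histograms of the log2 ratio of FPKM, mimic over control RNA, for all genes with at least 200 reads, with 1 panel per mimic, vertical lines at the 7 genes (their heights only separate the names), and a dashed line at the median of all genes. TNRC6A stands in the left tail with miR-1 and miR-122, and TNRC6B lies close to the median with each mimic.

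Comparing the mimic libraries with each other removes the shared control RNA library. Ratios that have a mimic library in common share that library in turn, so they are not separate comparisons. AGO4 was higher with miR-122 than with miR-1, at a ratio of 1.39 (1.11 to 1.73), and higher with miR-124 than with miR-1, at 1.32 (1.06 to 1.65). TNRC6A was also higher than in the miR-1 library, with a ratio of 1.16 (1.005 to 1.34) for miR-122 and 1.29 (1.12 to 1.47) for miR-124. These genes hold no match to miR-1 in the 3′ UTR.

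AGO1 was lower with miR-124 than with miR-1, at 0.839 (0.743 to 0.946), and lower than with miR-122, at 0.868 (0.759 to 0.993). AGO2 was slightly higher with miR-124 than with miR-1, at 1.121 (1.006 to 1.249), and than with miR-122, at 1.136 (1.006 to 1.284). For AGO3, TNRC6B, and TNRC6C every interval between 2 mimic libraries included 1. When each mimic library was set against the average of the other 2 and the control RNA library was left out, the number of genes with a ratio of 0.8 or less was 1 with miR-1 (AGO4) and 0 with miR-122 and miR-124. The share of all genes at this limit is not given here. By construction, a gene's ratios to this reference cannot be below 1 for every mimic. A difference from the control RNA library that all mimics share drops out of them. The log2 ratio of TNRC6A to this reference was lowest for miR-1, at -0.29, then 0.02 for miR-122 and 0.25 for miR-124.

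Seed matches and ratios are given side by side here. With miR-1, the lowest ratios were those of TNRC6A (0.578) and AGO4 (0.615), which hold no match to miR-1. TNRC6C, also without a match, was at 0.796. AGO2 and AGO3, with 2 matches each, were at 0.690 and 0.768. TNRC6B, with 2 matches, was at 0.999, and AGO1, with 1, was at 1.02. With miR-122, AGO3 with its 8 matches was at 0.743, and TNRC6A and AGO2 with 1 match each were at 0.671 and 0.681. AGO1 with an 8mer was at 0.985, and TNRC6B with 3 matches was at 1.005. AGO4 and TNRC6C, without a match, were at 0.854 and 0.915. These are 7 genes side by side, and no relation between matches and ratios was tested.

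The families were also summed. The 4 Argonaute genes had 1768 reads together with the control RNA and 1989, 1254, and 1377 with miR-1, miR-122, and miR-124. Relative to the depth of the libraries this is a ratio of 0.788 (0.739 to 0.841), 0.798 (0.742 to 0.858), and 0.798 (0.743 to 0.857), so the sum was nearly the same in the 3 mimic libraries although its members were not. The 3 TNRC6 genes had 1226 reads with the control RNA and 1327, 906, and 1023 in the mimic libraries. The ratio of that sum was 0.759 (0.701 to 0.820), 0.832 (0.762 to 0.907), and 0.855 (0.786 to 0.930). There were 1.44 (1.34 to 1.55) Argonaute reads per TNRC6 read with the control RNA, 1.499 (1.398 to 1.608) with miR-1, 1.38 (1.27 to 1.51) with miR-122, and 1.35 (1.24 to 1.46) with miR-124.

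Levels can be compared between genes only per length of mature transcript, since the deposited FPKM divide by the whole gene with its introns. Here this is the reads of a gene per kilobase of its annotated exons, scaled like the FPKM to the reads of the library. On this scale AGO2 was the highest of the 7 genes with the control RNA, at 7.55, followed by TNRC6A at 6.48, AGO1 at 5.51, AGO4 at 4.13, TNRC6C at 3.83, TNRC6B at 2.82, and AGO3 at 1.85. AGO4 and TNRC6C did not differ beyond counting error at this length, and every other neighbor in that order did. The top of the order depends on the length used. Per kilobase of the longest annotated transcript, TNRC6A was first with the control RNA, at 9.90 against 8.20 for AGO2. By that length it was also first with miR-122, at 6.64, and with miR-124, at 7.36, while AGO1 was first with miR-1, at 5.76 against 5.72 for TNRC6A. The values that follow are per exonic kilobase again. With miR-1, AGO1 was first at 5.62 and AGO2 second at 5.21, not apart beyond counting error, before TNRC6A at 3.74. The next 3, TNRC6C at 3.05, TNRC6B at 2.82, and AGO4 at 2.54, could not be ordered from one to the next.

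With miR-122, AGO1 at 5.43 and AGO2 at 5.15 were again not apart, and TNRC6A followed at 4.35. With miR-124, AGO2 was first at 5.85, and TNRC6A at 4.82 and AGO1 at 4.71 were not apart. AGO3 was last in all 4 libraries, between 1.37 and 1.85. Its place in the order is by reads per exonic kilobase, and its long annotated UTR, which may not be part of each transcript made in the cells, lowers it.

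Within the Argonautes, by reads per exonic kilobase, AGO2 made up 39.7% with the control RNA and, with the mimics of miR-1, miR-122, and miR-124 in turn, 35.3%, 33.3%, and 38.2%. AGO1 made up 29.0%, 38.0%, 35.1%, and 30.8%, the control RNA first. AGO4 made up 21.7%, 17.2%, 22.8%, and 21.9%, and AGO3 between 8.87% and 9.70%. By the longest annotated transcript, AGO2 was also ahead of AGO1 with the control RNA, at 40.9% against 28.2%, and with miR-124, at 39.5% against 30.0%. With miR-1 AGO1 was at 37.1% and AGO2 at 36.4%, and with miR-122 they were at 34.3% and 34.4%. By the deposited FPKM AGO1 was first in all 4 libraries, with 39.8% to 49.9%, but these divide by the gene with its introns and do not compare levels between genes. Within the TNRC6 family, TNRC6A made up 49.4% with the control RNA and 39.0%, 40.7%, and 43.6% with the mimics in the same order, and TNRC6B made up 21.5%, 29.3%, 26.5%, and 25.04%. As a share of TNRC6 reads, with no length involved, TNRC6A had 45.4% (42.6% to 48.3%) with the control RNA and 34.6% (32.0% to 37.2%) with miR-1. The order within the family depended on the measure. By reads TNRC6B was ahead of TNRC6A with miR-1, at 40.2% (37.5% to 42.9%), and level with it with miR-122, at 36.9% against 36.6%, and by the deposited FPKM TNRC6C was ahead of TNRC6A with miR-1, at 36.2% against 34.1%, and with miR-122, at 37.5% against 35.7%. Neither of these measures is per length of mature transcript, so they do not compare levels between genes.

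**Figure D4:**
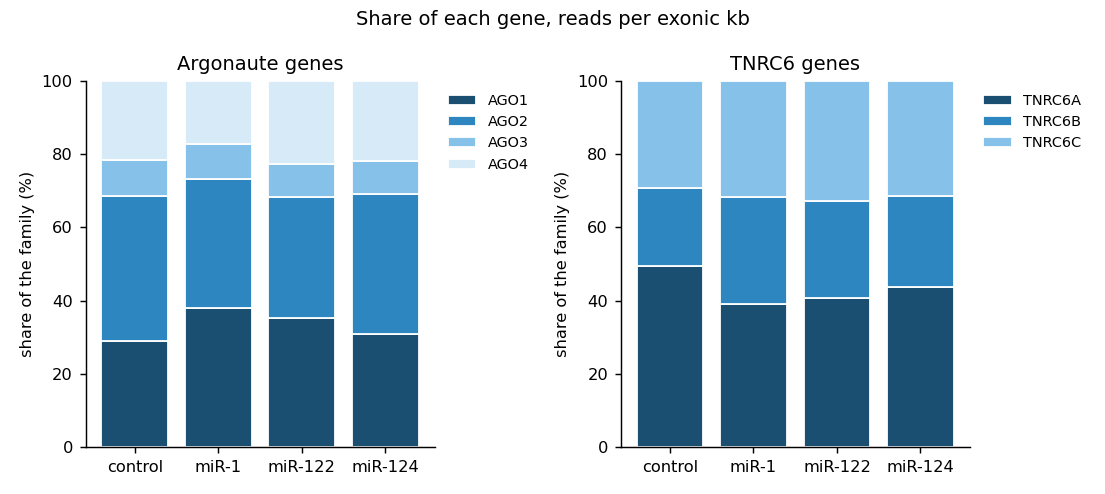
Share of each gene among the Argonaute genes (left) and the TNRC6 genes (right) in each library, in percent of the reads per exonic kilobase, stacked to 100. AGO2 is the largest share with the control RNA at 39.7% and AGO1 with miR-1 at 38.0%, and TNRC6A is the largest TNRC6 share in every library on this scale, though not by reads or by deposited FPKM with miR-1 and miR-122.

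Part of each ratio moved with features that many genes share. Over all genes with a 3′ UTR and at least 200 reads, the log2 ratio was related to UTR length, with Pearson's r of -0.35, -0.29, and -0.37 with miR-1, then miR-122, then miR-124. It was also related to the GC content of the UTR, with r of 0.24, 0.34, and 0.61. These are correlations across genes, which share libraries and are not independent. A cubic trend with UTR length and GC content, gene span, and reads explained 19.8%, 18.3%, and 45.3% of the variance of the log2 ratio. At the features of the 7 genes the trend lay between -0.13 and -0.32.

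After the trend was subtracted, TNRC6A remained at log2 ratios of -0.58, -0.42, and -0.20, AGO2 at -0.30, -0.40, and -0.17, and AGO4 at -0.50, -0.09, and -0.09 with miR-1, miR-122, and miR-124. AGO3, with the longest UTR, moved to -0.06, -0.21, and -0.10. TNRC6B moved up to 0.32, 0.21, and 0.24, and AGO1 to 0.23, 0.12, and -0.04. TNRC6C was then at -0.11, 0.01, and 0.04. The number of genes with a ratio of 0.8 or less was 2 with miR-1 (AGO4 and TNRC6A), 2 with miR-122 (AGO2 and TNRC6A), and 0 with miR-124, while 9.89%, 7.76%, and 5.77% of all adjusted genes had one. What the trend with UTR length and GC content stands for was not tested.

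**Figure D5:**
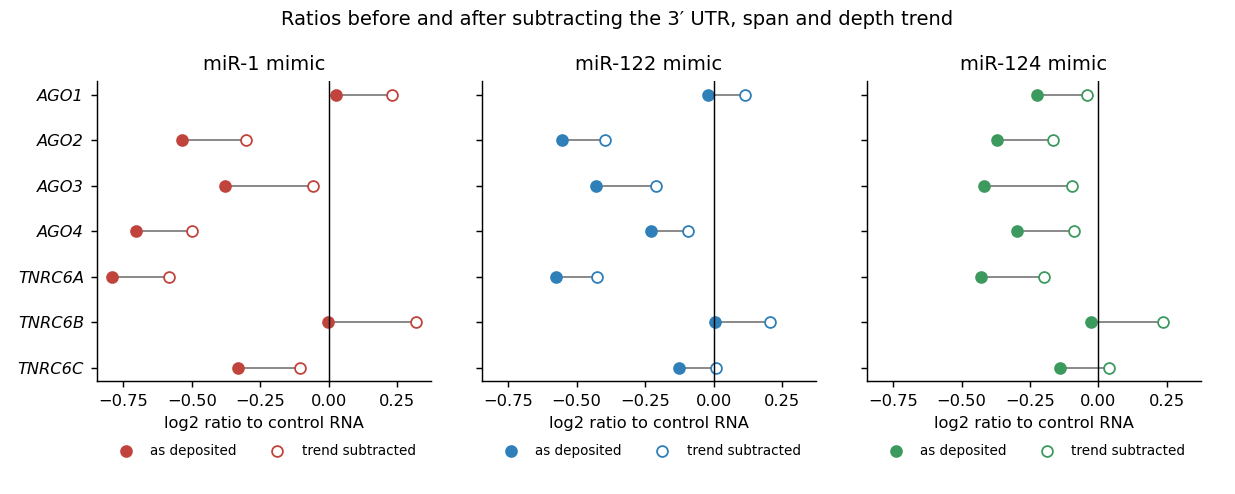
Log2 ratio to the control RNA library for each gene and mimic, before (filled) and after (open) the trend with 3′ UTR length and GC content, gene span, and reads was subtracted. All 7 genes move to the right, and TNRC6A stays lowest with each mimic, at -0.58, -0.42, and -0.20.

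The other genes of the pathway were described by lists. The 4 PIWI genes, which belong to the same protein family and act in the germ line, had summed values of 0.0136 to 0.0368 FPKM, and none reached 200 reads. Argonautes are loaded with the help of DICER1, the nuclease that makes miRNA duplexes, and its partners TARBP2 and PRKRA. DICER1 was at 0.955 FPKM with the control RNA and at 0.545, 0.620, and 0.707 with miR-1, miR-122, and miR-124. Its ratio was 0.571 (0.497 to 0.657), 0.649 (0.556 to 0.758), and 0.740 (0.640 to 0.855), side by side with 0.578, 0.671, and 0.743 for TNRC6A. TARBP2 had the highest ratios of the 3, at 1.204 (1.05 to 1.38), 1.14 (0.984 to 1.33), and 1.18 (1.02 to 1.36).

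HSP90 and its partners hold Argonaute open for loading. Of 11 such chaperone genes, 0 had a ratio of 0.8 or less for miR-1 or miR-122, and 1 had it for miR-124, beside 18.7%, 12.5%, and 16.6% of all genes with the 3 mimics. The whole interval was above 1 for 8 of the 11 with miR-1, beside 15.7% of all genes, and below 1 for 6 of the 11 with miR-124, beside 22.3%. Their median log2 ratio was 0.15, -0.01, and -0.13. The lowest was DNAJA2, at 0.956 with miR-1, and FKBP5, at 0.868 with miR-122 and 0.747 with miR-124. The highest was CDC37, which brings kinases to HSP90, at 1.21 with miR-1 and 1.15 with miR-124, and AHSA1, which stimulates HSP90, at 1.0998 with miR-122.

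Of 13 genes whose products modify or bind Argonaute, 2, 4, and 3 had a ratio of 0.8 or less with miR-1, miR-122, and miR-124, where 18.7%, 12.5%, and 16.6% of all genes did. The whole interval was below 1 for 6, 3, and 6 of the 13, beside 25.1%, 16.8%, and 22.3% of all genes. It was above 1 for 1, 3, and 3, beside 15.7%, 13.4%, and 16.6%. The median log2 ratio was -0.19, -0.03, and 0.02. TRIM71, a ubiquitin ligase, was the lowest with miR-1, at 0.576 (0.412 to 0.801), and with miR-124, at 0.573 (0.392 to 0.829). CSNK1A1, a kinase that phosphorylates AGO2, was the lowest with miR-122, at 0.718 (0.625 to 0.824). The highest was P4HB, a subunit of the prolyl hydroxylase that modifies AGO2, at 1.14 for the miR-1 mimic and 1.248 for the miR-122 mimic. WTIP, a LIM domain protein, was the highest with miR-124, at 1.41 (1.22 to 1.63).

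Of 14 genes for the deadenylases that TNRC6 recruits and for poly(A) binding proteins, 3, 2, and 4 had a ratio of 0.8 or less, against the same 18.7%, 12.5%, and 16.6% of all genes. The whole interval was below 1 for 6, 4, and 8 of the 14, beside 25.1%, 16.8%, and 22.3% of all genes. It was above 1 for 3, 1, and 1, beside 15.7%, 13.4%, and 16.6%. The median log2 ratio was -0.17, -0.11, and -0.21. CNOT6, a catalytic subunit of CCR4-NOT, had the lowest ratio of the list with miR-1, at 0.372 (0.320 to 0.432), going from 0.924 FPKM with the control RNA to 0.344. It was at 0.625 FPKM with miR-122 and 0.738 with miR-124. PAN3, which pairs with the nuclease PAN2, was the lowest with miR-122, at 0.544 (0.440 to 0.671), and CNOT7, the other type of catalytic subunit, with miR-124, at 0.750 (0.587 to 0.955). The highest was CNOT10 at 1.23 for the miR-1 mimic and 1.19 for the miR-122 mimic, and CNOT3 at 1.34 with miR-124.

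Of 10 genes for translational repression and decapping, 3, 2, and 2 had a ratio of 0.8 or less, again beside 18.7%, 12.5%, and 16.6% of all genes. The whole interval was below 1 for 5, 3, and 3 of the 10, beside 25.1%, 16.8%, and 22.3% of all genes. It was above 1 for 0 with each mimic, beside 15.7%, 13.4%, and 16.6%. The median log2 ratio was -0.17, 0.00, and -0.14. EDC3, an enhancer of decapping, was the lowest with miR-1, at 0.722 (0.644 to 0.811). DCP1A, the cofactor of the decapping enzyme, was the lowest with miR-122, at 0.559 (0.454 to 0.685), and with miR-124, at 0.643 (0.531 to 0.777). The highest was DDX6 at 1.101 with miR-1, DCP2 at 1.15 with miR-122, and DCP1B at 1.07 with miR-124, each with an interval that included 1. Reads were recovered for 7 of 8 reference genes and not for GAPDH, the most abundant of them, whose ratios were 1.08, 1.14, and 1.21. The other 7 had at least 200 reads each, and their median log2 ratio was -0.12, 0.09, and -0.07. Among these 7, TBP was the lowest with each mimic, at 0.842, 0.750, and 0.786, and the highest was HPRT1 at 1.18 with miR-1 and ACTB at 1.30 with miR-122 and 1.09 with miR-124.

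Likeness of pattern was taken as the largest difference between 2 genes, over the 4 libraries, in log2 FPKM centered on the gene's own mean, among 9388 genes with at least 500 reads. The pattern of TNRC6A was uncommon, with 26 genes (0.277%) within 0.1 of it, and the nearest was DICER1 at 0.03, followed by USP46 and AAK1. AGO2 had 85 genes (0.905%) within 0.1, with PFKFB2, DENND5B, and NREP the nearest, and AGO4 had 87 (0.927%), with MIER1, CAP1, and SNX6 the nearest. The patterns of the others were common. AGO3 had 294 genes (3.13%) within 0.1, led by MAP3K21, SLC38A1, and RIMOC1, TNRC6C had 511 (5.44%), led by INSIG2, DYRK1A, and RFX5, AGO1 had 753 (8.02%), led by DUSP12, THUMPD3, and TMCO6, and TNRC6B had 1224 (13.0%), with STAMBP and ING5 among the nearest. Among the 7 genes themselves, AGO2 and AGO3 were the most alike, at 0.11, and AGO1 and AGO4 the least, at 0.48, although they are neighbors on chromosome 1.

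Some reads may belong to other genes. TMC6, on the opposite strand, overlaps TNRC6C by 1426 bases and had 762 reads over the 4 libraries, with ratios of 0.789, 0.809, and 1.01 with miR-1, miR-122, and miR-124. Whether the reads were counted by strand is not given in the sources used here, so reads of that overlap cannot be told apart. Every other annotated gene that overlaps one of the 7 and was listed had at most 26 reads in all, the most being an antisense transcript within AGO3 (ENSG00000271554). Of all words of 50 bases in the exons of the 7 genes, those also found in other genes were 1.60% in AGO3, 0.330% in TNRC6A, 0.256% in AGO4, 0.0996% in TNRC6B, and 0 in AGO1, AGO2, and TNRC6C.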

How the data were processed

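mRNA libraries were made from total RNA of transfected 293T cells (VAHTS mRNA-seq kit) and sequenced from a single end. According to the submitters' processing notes and the study's methods, the authors called bases with CASAVA 1.8, aligned the trimmed reads with HISAT2 2.0.0 to GRCh38, and deposited an FPKM value for each Ensembl gene in a library. The counting program and gene annotation are not given in the sources used here. Gene names, spans, exons, and 3′ UTRs were taken from GENCODE release 44, in which 98.8% of the listed identifiers were found.

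The number of reads that the FPKM of each library had been divided by was recovered from genes with single reads, and each gene's length was the whole number, within 15% of its annotated start-to-end distance, at which the reads of the 4 libraries came out whole. This succeeded for 12312 of 12780 genes with about 200 reads or more (96.3%). For AGO3, TNRC6A, and TNRC6B the length was that distance itself. The recovered reads summed to 102.5% to 102.8% of the divisors, so those of some genes are too high. Ratios do not depend on the length, while intervals and levels per exonic kilobase do. Genes above 0.004 FPKM in both libraries entered a ratio, and genes with at least 200 reads over the 4 libraries served as the background.

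Named were the 7 genes, the lowest and highest ratio in each pathway list, the 3 genes most alike in pattern, and overlapping genes. A gene that this rule names and the sequences of some seed matches are not reported here. The genes, lists, and alternatives were chosen with earlier results of these data known. Alternatives were pseudocounts of 1 and 0.1, the other 2 mimic libraries as reference, centering, a fold of 1.5, other backgrounds, other lengths, the trend adjustment, the UTR of a representative transcript, and leaving out each gene. The scripts were tested on simulated data. Scripts ran in Python 3.11.15 with scipy 1.17.1, numpy 2.4.6, matplotlib 3.10.9, and pandas 2.3.3.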

Additional observations from a re-analysis of the deposited data

How the results depend on the processing

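The median log2 ratio of the 7 genes with miR-1, -0.38, was -0.074 with a pseudocount of 1, -0.076 against the mean of the other 2 mimic libraries, and -0.11 after the trend adjustment. With miR-122, in place of -0.23, it was -0.08 with a pseudocount of 1, 0.022 against the other mimic libraries, and -0.09 after the adjustment. With miR-124, in place of -0.30, it was -0.11, 0.083, and -0.09 under the same settings. Of 5 genes at a ratio of 0.8 or less with miR-1, 3 were left with a pseudocount of 0.1 or after centering on all genes above 0.004, 2 with a fold of 1.5 or the adjustment, 1 against the other mimics, and 0 with a pseudocount of 1. Of 3 with miR-122, 0 were left with a fold of 1.5, a pseudocount of 1, or the other mimics as reference, and of 3 with miR-124, 0 were left with any of these or the adjustment. Except for the adjustment, the shares of all genes under these settings are not given here, so the counts have no background beside them. Among genes whose interval to the control RNA lay wholly below 1, the log2 ratio against the other mimics changed sign for AGO3 with miR-1 (0.044), TNRC6A with miR-122 (0.022) and miR-124 (0.25), and AGO2 with miR-124 (0.17). It also changed sign, from ratios whose interval included 1, for AGO4 with miR-122 (0.26) and miR-124 (0.15), TNRC6C with miR-122 (0.11) and miR-124 (0.083), AGO1 with miR-122 (0.072), and TNRC6B with miR-1 (0.0086). The cause of these shifts was not tested, apart from what each setting does by construction, since a pseudocount of 1 exceeds most of these values and the other reference leaves out the control RNA library. Against that reference, a gene's ratios cannot be below 1 for every mimic. A gene that was below the control RNA library with every mimic therefore had to lose its sign for at least 1 of them, whatever the data. Without each gene in turn the median was -0.46 to -0.35 with miR-1, -0.33 to -0.18 with miR-122, and -0.33 to -0.26 with miR-124, and centering moved it by the median of all genes. No paired analysis was possible because there was 1 library for each condition, and no replicate could be left out. With 178 to 203 reads for AGO4 in the control RNA and miR-1 libraries, modest differences of the scarcer genes were not detectable at this depth.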
